A study of Mus musculus with 8 samples.

Results

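Lipid traffic in the brain depends on a small set of secreted carriers and membrane pumps, and 8 genes of this set were examined in the cerebellum of *Atm*-KO mice. They are the apolipoprotein genes *Apoe*, *Apod*, *Clu* and *Apoc1*, the efflux transporter genes *Abca1* and *Abcg1*, and the particle-remodelling genes *Lcat* and *Pltp*, found by their symbols among the 56691 genes of the count table. All 8 passed the filter on low counts and were among the 22423 genes tested. The set was chosen by gene name with the measured difference between *Atm*-WT and *Atm*-KO libraries known, so the levels of its genes and their differences between genotypes are given as a description, without a p-value.

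The libraries are bulk RNA-seq of the cerebellum of 8 mice, 4 *Atm*-WT (ATM +/+) and 4 *Atm*-KO (ATM -/-), with a library for each mouse. The methods describe mice aged 6 months, *Atm*-KO animals bred from heterozygous B6;129S4-Atmtm1Bal/J parents, *Atm*-WT littermates as controls, and perfusion with saline before the tissue was taken. The allele is carried by every cell of the animal, and the tissue holds all cerebellar cells, so fewer cells of a type and less RNA per cell cannot be told apart. Mice are named by their labels, in which *Atm*-KO mouse 7F carries the letter F and the other 7 the letter M. The libraries held between 65967130 and 88030300 counts. *Atm* itself was at 59.0 to 80.0 CPM in the controls against 41.1 to 51.1 CPM in *Atm*-KO mice (log2 fold change −0.66 with a standard error of 0.10, adjusted p = 0.0775 from edgeR and 2.01e-05 from DESeq2), so its RNA was lower in every *Atm*-KO mouse but still present. CPM are counts scaled to a common library size after TMM normalization. Summed over their markers, Purkinje cells had 8062 to 10142 CPM and granule cells 4998 to 7242 CPM over all 8 mice, against 4.81 to 7.32 CPM for forebrain markers.

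Lipoproteins of the blood do not cross into the brain in quantity, and cholesterol is made and moved locally. Astrocytes and microglia secrete apolipoprotein E, which takes up cholesterol and phospholipid exported by the pumps ABCA1 and ABCG1. The particle is then reshaped by the cholesterol esterifying enzyme LCAT and the phospholipid transfer protein PLTP, and it is taken up by neurons through lipoprotein receptors. Liver X receptors, nuclear receptors that bind oxidised sterols, induce several of these genes, and *Abca1* is a classical target.

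*Apoe* lies on chromosome 7 of GRCm39 from 19430034 to 19434947, and *Apoc1*, a member of the same gene cluster, ends 2.71 kb from it on the same strand. The other genes lie on separate chromosomes. *Apod* is on chromosome 16 from 31115010 to 31135355, *Clu* on chromosome 14 from 66190200 to 66218999 and *Abca1* on chromosome 4 from 53030787 to 53159900. *Abcg1* is on chromosome 17 from 31276649 to 31336969, *Lcat* on chromosome 8 from 106665839 to 106670046 and *Pltp* on chromosome 2 from 164677702 to 164701743. Of the exon bases of *Pltp*, 21.2% are shared with *Ctsa* on the opposite strand, and 26.4% of those of *Apod* with the non-coding *Gm41442*. How strand was handled in counting is not given in the sources used here, so the counts of these 2 genes are uncertain by reads of their partners. *Apoe* shares 12.9% of its exon bases with the opposite-strand *Gm71725*, which has no row in the count table.

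Promoter sequences of RefSeq on GRCm38.p6, a build other than that of the counts, were available for 5 of the 8 genes (*Apoe*, *Apod*, *Abca1*, *Lcat* and *Pltp*), with 7 listed starts. No entry was listed for *Clu*, *Apoc1* or *Abcg1*. The liver X receptor element is a pair of AGGTCA half-sites in the same direction spaced by 4 bases (DR4), and both strands were searched. None of the 7 starts held an exact AGGTCA half-site in the 300 bases around the start, where 16.3% of all 32851 listed promoters did. A DR4 element with at most 1 difference was likewise absent from them and present in 0.25% of all promoters. This rule misses elements that differ at more bases, and sequence outside these windows was not searched. The absence of a match therefore does not mean that a gene lacks a liver X receptor element. In the 250 bases before the start, the closest window of *Abca1* differed from the element at 3 bases and lay 51 bases before the start on the minus strand of the printed sequence. *Lcat* had an equally close window, with 3 differences, 6 bases before its start. A window with at most 3 differences occurred in 18.5% of all promoters. The closest windows of *Apoe* differed at 4 or 5 bases, as in most promoters (70.6% had a window with at most 4 differences). *Abca1* also had 2 copies of the GC box GGGCGG, *Pltp* had 1, and the other 3 genes had 0, against 35.7% of all promoters with at least 1. The promoters of *Abca1*, whose level was close between genotypes, and of *Apoe*, whose level was lower in *Atm*-KO mice, are shown from 250 bases before the start up to the start, with the closest DR4 window of *Abca1* in capitals. *Apoe* is shown at the most upstream of its 3 listed starts, where no single window was closest.
Abca1, chr4:53159896-53160145, minus strand: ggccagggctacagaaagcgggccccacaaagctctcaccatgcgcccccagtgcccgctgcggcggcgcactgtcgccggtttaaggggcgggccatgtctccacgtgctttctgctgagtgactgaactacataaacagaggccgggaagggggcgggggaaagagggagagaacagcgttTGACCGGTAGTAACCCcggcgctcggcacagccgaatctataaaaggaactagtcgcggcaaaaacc
Apoe, chr7:19699189-19699438, minus strand: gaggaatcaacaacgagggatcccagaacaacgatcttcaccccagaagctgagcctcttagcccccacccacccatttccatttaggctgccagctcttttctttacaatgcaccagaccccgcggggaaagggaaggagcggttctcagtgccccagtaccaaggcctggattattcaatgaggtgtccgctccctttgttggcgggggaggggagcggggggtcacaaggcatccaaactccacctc

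Levels of different genes were compared as CPM per kilobase of exon, with the length taken over all annotated exons of a gene. On this scale *Apoe* was highest in *Atm*-WT mice (80.5 ± 15.4, SD, n = 4), followed by *Apod* (59.9 ± 7.41) and *Clu* (54.1 ± 6.39). Ranges of neighbours in this order overlapped, from 64.5 to 96.4 for *Apoe*, from 50.6 to 67.6 for *Apod* and from 46.7 to 60.0 for *Clu*. *Abcg1* (23.3 ± 1.29), *Lcat* (19.4 ± 1.41), *Pltp* (15.1 ± 1.93) and *Abca1* (14.5 ± 2.60) came next, all below the lowest mouse of *Clu*. *Pltp* and *Abca1* overlapped, whereas the ranges of *Abcg1* and *Lcat* and of *Lcat* and *Pltp* did not. *Apoc1* was last at 0.139 ± 0.0866. In *Atm*-KO mice *Clu* (43.3 ± 7.39) stood above *Apod* (34.7 ± 7.10) and *Abca1* (13.8 ± 0.621) above *Pltp* (12.2 ± 0.518) on this scale. With the length of the canonical transcript instead, a choice made after seeing the data, *Clu* ranked first and *Apoe* second in both genotypes, and all 8 genes had the same rank in both. The order of the genes, and any change in it between genotypes, therefore depends on the length used.

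*Apoe*, the main lipid carrier of the brain, had 390.1, 284.9, 261.3 and 367 CPM in *Atm*-WT mice 2M, 7M, 13M and 32M. In *Atm*-KO mice 1M, 7F, 11M and 12M it had 191.6, 271.4, 223.4 and 186.2 CPM. The highest *Atm*-KO mouse, 7F, stood just above the lowest *Atm*-WT mouse, 13M, so the genotypes overlapped in that pair alone. The fitted log2 fold change was −0.58 (standard error 0.15), a change of −33.0%. Among the 3 *Atm*-KO mice with the letter M the highest value was 223.4 CPM, below every *Atm*-WT mouse, and without mouse 7F the log2 fold change was −0.68.

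*Clu* encodes clusterin, also called apolipoprotein J, a secreted chaperone and lipid carrier made by astrocytes and choroid plexus. Its level in *Atm*-WT mice was 338 CPM in 2M, 285.6 in 7M, 263.2 in 13M and 331.1 in 32M. In *Atm*-KO mice it was 206.3 CPM in 1M, 295.6 in 7F, 259.8 in 11M and 214.8 in 12M. As for *Apoe*, mice 2M and 32M were the high *Atm*-WT mice and 1M and 12M the low *Atm*-KO mice, and only 7F reached the *Atm*-WT range. The log2 fold change was −0.32 (standard error 0.12), a change of −19.8%. *Clu* differed less than *Apoe*, and the ratio of their CPM was 0.866 to 1.007 in the *Atm*-WT group and 1.08 to 1.16 in the *Atm*-KO group, with no overlap.

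*Apod* encodes a lipocalin that binds arachidonic acid and other small lipids and is made in the mouse brain by oligodendrocytes and by cells along vessels and meninges. It had 188.4, 199.998, 149.7 and 171 CPM in *Atm*-WT mice 2M, 7M, 13M and 32M. Its values in *Atm*-KO mice 1M, 7F, 11M and 12M were 86.1, 119.3, 122.1 and 82.9 CPM. No *Atm*-KO mouse reached the *Atm*-WT range, by at least the gap between 122.1 and 149.7 CPM. With a log2 fold change of −0.79 (standard error 0.14), a change of −42.1%, it showed the largest difference of the 8 genes. Mice 1M and 12M again had the lowest values, while the high *Atm*-WT mouse was 7M, which was among the lower mice for *Apoe*.

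*Apoc1*, whose product modulates lipoprotein metabolism, was barely detected. It had 42, 10, 16 and 28 counts in *Atm*-WT mice 2M, 7M, 13M and 32M and 18, 30, 22 and 20 counts in *Atm*-KO mice 1M, 7F, 11M and 12M. These counts correspond to at most 0.554 CPM. The log2 fold change of −0.02 had a standard error of 0.45, so a difference as large as that of *Apoe* was not measurable with these counts and their spread between mice. Its value moved from −0.26 without *Atm*-WT mouse 7M to 0.45 without *Atm*-WT mouse 2M.

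**Figure D1:**
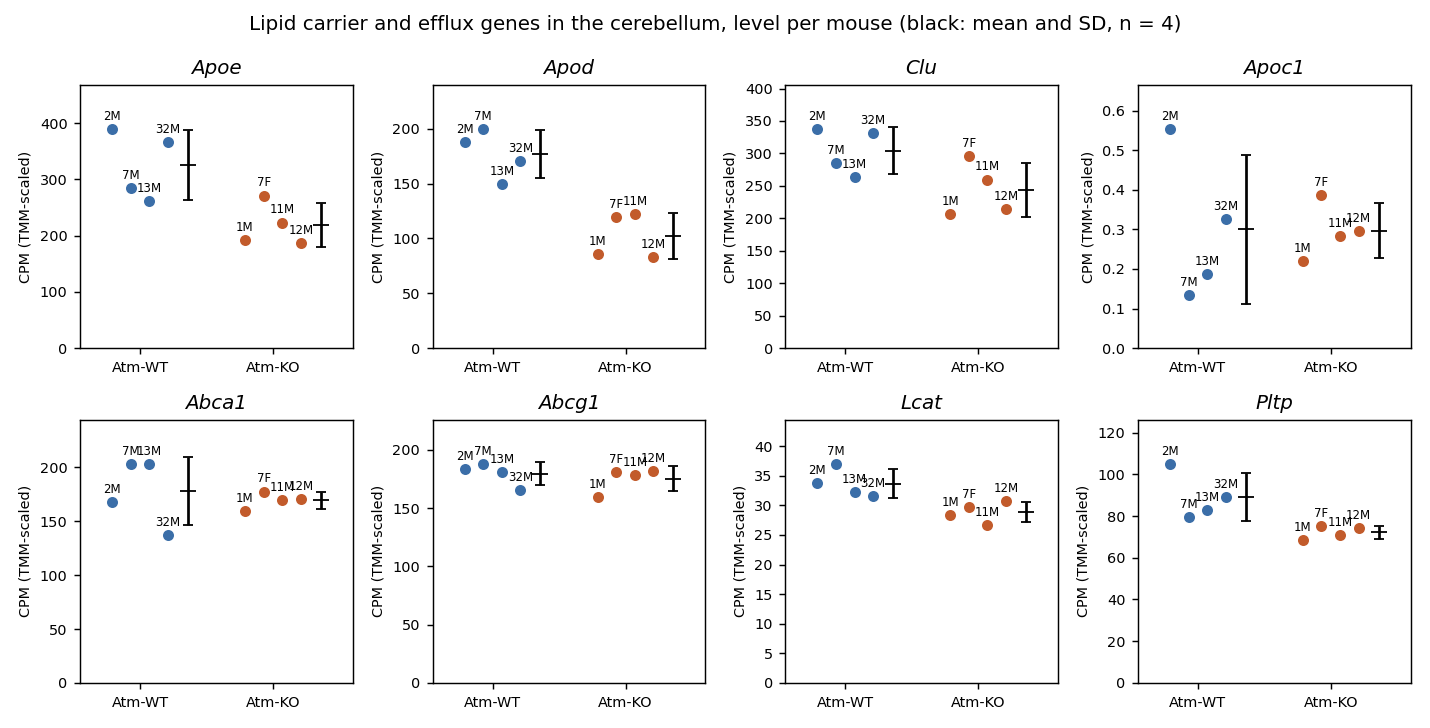
Level of each lipid carrier and efflux gene in CPM (vertical axis, from 0, separate scale per gene) in 4 *Atm*-WT and 4 *Atm*-KO mice. Points are mice with their labels and black bars are the mean and SD. *Apod*, *Lcat* and *Pltp* lie lower in every *Atm*-KO mouse, *Apoe* and *Clu* overlap through mouse 7F, and *Abca1*, *Abcg1* and *Apoc1* overlap broadly.

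ABCA1 loads lipid onto empty apolipoproteins and ABCG1 adds cholesterol to particles that already carry lipid. The level of *Abca1* was 168.1, 203.6, 203.2 and 137.3 CPM in *Atm*-WT mice 2M, 7M, 13M and 32M. In *Atm*-KO mice 1M, 7F, 11M and 12M it was 159.2, 177.7, 169.5 and 170.9 CPM. All 4 *Atm*-KO mice lay inside the *Atm*-WT range, and their coefficient of variation was 4.50% against 17.9%. The log2 fold change was −0.07 (standard error 0.11) and depended on single mice, at 0.01 without *Atm*-WT mouse 13M and −0.18 (standard error 0.079) without *Atm*-WT mouse 32M. Among *Atm*-WT mice *Abca1* was high where *Apoe* was low, in 7M and 13M, and low where *Apoe* was high, in 2M and 32M. Genes with a mean of at least 10 CPM were split into 5 equal bands by transcript length, with levels taken relative to *Atm*-WT mice. The longest band, with *Abca1*, had median log2 levels of 0.00138 in 2M, 0.0895 in 7M, 0.0330 in 13M and −0.117 in 32M. The shortest band, with *Apoe*, had 0.0181 in 2M, −0.0853 in 7M, −0.0305 in 13M and 0.109 in 32M. The part of transcript length in this pattern was not tested.

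For *Abcg1* the values were 183.7, 188.3, 180.7 and 165.4 CPM in *Atm*-WT mice 2M, 7M, 13M and 32M. They were 159.3, 181.3, 178.5 and 181.9 CPM in *Atm*-KO mice 1M, 7F, 11M and 12M. The genotypes shared almost the same range, and mouse 1M stood apart at the low end of the *Atm*-KO mice. Its log2 fold change was −0.03 (standard error 0.067), and it was 0.05 when trends of GC content and transcript length were removed in each library, an alternative chosen after seeing the data. The CPM of *Abcg1* relative to *Abca1* was 1.03 ± 0.147 in controls against 1.03 ± 0.029 in *Atm*-KO mice.

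LCAT esterifies the cholesterol of lipoprotein particles and is made in the brain by astrocytes. *Lcat* had 33.8, 37.1, 32.2 and 31.6 CPM in *Atm*-WT mice 2M, 7M, 13M and 32M. It had 28.4, 29.7, 26.7 and 30.7 CPM in *Atm*-KO mice 1M, 7F, 11M and 12M. The genotypes did not overlap, but the gap was narrow, between 30.7 and 31.6 CPM. The log2 fold change was −0.22 (standard error 0.076), a change of −14.2%.

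PLTP exchanges phospholipid between particles. *Pltp* had 105.2, 79.4, 83.04 and 89.0 CPM in *Atm*-WT mice 2M, 7M, 13M and 32M. In *Atm*-KO mice 1M, 7F, 11M and 12M the values were 68.6, 75.0, 70.7 and 74.5 CPM. All *Atm*-KO mice lay below all *Atm*-WT mice and within a span of few CPM, with mouse 2M the highest by far. The log2 fold change was −0.30 (standard error 0.086), a change of −19.0%, and −0.22 without mouse 2M. Scaled by library size alone, in place of TMM, *Lcat* and *Pltp* overlapped between genotypes (31.4 CPM in the highest *Atm*-KO and the lowest *Atm*-WT mouse for *Lcat*, 76.3 and 76.0 CPM for *Pltp*), and only *Apod* stayed without overlap, where 2.64% of all genes tested had every *Atm*-KO mouse lower on that scale.

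**Figure D2:**
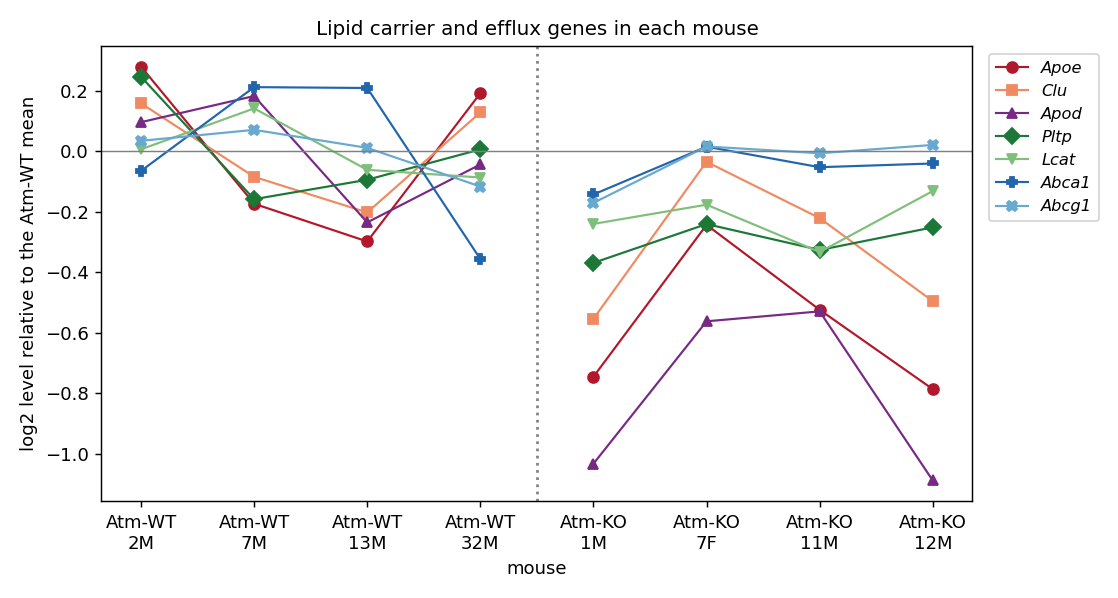
Level of 7 genes in each mouse on the log2 scale (vertical axis, log2 CPM minus the *Atm*-WT mean of that gene) against the 8 mice (horizontal axis, in no biological order; lines only join the points of a gene within a genotype). *Apoe* and *Clu* share high values in *Atm*-WT mice 2M and 32M and low values in *Atm*-KO mice 1M and 12M, and *Abca1* and *Abcg1* lie between −0.171 and 0.0209 in *Atm*-KO mice, lowest in 1M.

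Over the 8 genes the median log2 fold change was −0.26, against −0.02 over all genes tested, and all 8 fitted values were below 0, as were 11900 of the 22423 (53.1%). Of the 9955 genes with a mean of at least 10 CPM, as all but *Apoc1* had, 6583 were below 0 with a median of −0.06. The values of *Apod*, *Lcat* and *Pltp* did not overlap between genotypes, where 5.12% of all genes tested had every *Atm*-KO mouse below every *Atm*-WT mouse (6.47% had the opposite order). With both thresholds of edgeR's quasi-likelihood test (adjusted p below 0.05, log2 fold change beyond 0.5 either way) 0 of the 8 genes were called, against 4 of all genes tested (0.0178%), of which 2 were lower (0.00892%). At an unadjusted p under 0.05 in edgeR 5 of the 8 were lower, against 8.48% of all genes, and 0 were higher, against 11.7% (20.2% in either direction). limma voom called 0 of the 8 (0.0134% of all genes), and DESeq2's Wald test put 3 of the 8 at an adjusted p under 0.05 in the lower direction, against 2.44% of the genes to which it gave an adjusted p (7.49% in either direction). With the fold threshold added, 2 of the 8 passed in DESeq2, against 4.8% of those genes, and 2 passed both thresholds in edgeR without a filter on low counts, against 1.19% of the 36568 genes in that fit. Since the contrast was known when the genes were chosen, these counts describe the set and support nothing further.

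**Figure D3:**
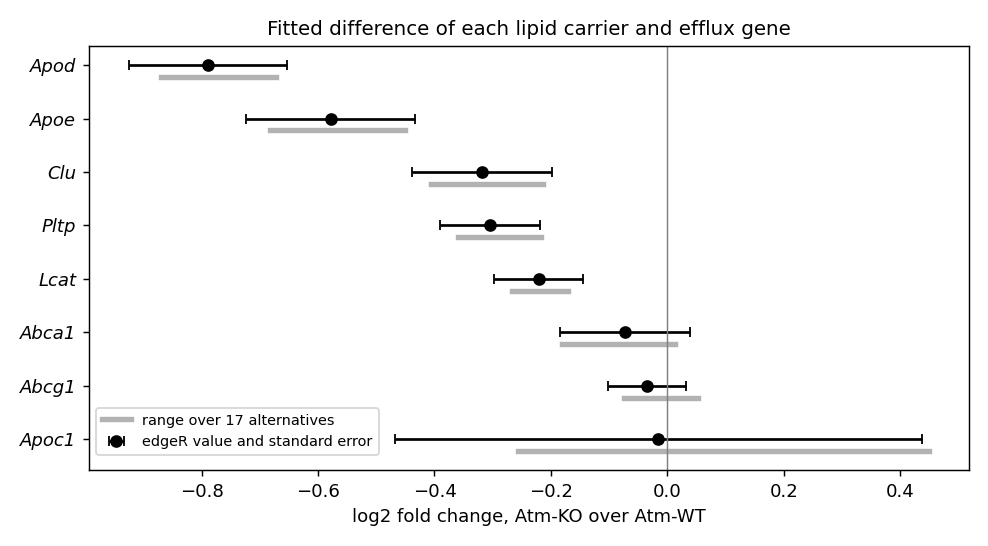
Fitted log2 fold change of *Atm*-KO over *Atm*-WT mice for each of the 8 genes (black points, with the standard error of the edgeR fit) and the range of the same value over 17 alternative analyses (grey bars). *Apod*, *Apoe*, *Clu*, *Pltp* and *Lcat* stay below 0 in all of them, while the ranges of *Abca1*, *Abcg1* and *Apoc1* include 0.

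The profile of each gene over the 8 mice was compared with that of other genes by the root mean square difference of log2 CPM, after each gene was centred on its own mean. Among pairs of the 8 genes, *Abcg1* and *Lcat* (0.120), *Abca1* and *Abcg1* (0.129) and *Apoe* and *Clu* (0.145) were closest. *Abcg1* and *Lcat* vary little within either genotype, which keeps such differences small. *Apoe* and *Apod* differed by 0.221 and *Apoe* and *Abca1* by 0.432. *Apoc1* and *Apoe*, neighbours in the genome, differed by 0.516. Among 9948 other genes with a mean of at least 10 CPM, the median difference from *Apoe* was 0.361. The 5 genes with the profile most like *Apoe* were *Dynlrb1* (0.0647), *Rpl23a* (0.0658), *Map1lc3a* (0.0695), *Elob* (0.0793) and *H4c12* (0.0869), which encode a dynein light chain, a ribosomal protein, an autophagy protein, an elongin subunit and a histone. *Clu* ranked 55 among these genes in its likeness to *Apoe*, and *Apoe* ranked 542 in its likeness to *Clu*. All 5 have short transcripts, with a median of 579 bases and none over 823, where the median over genes of this level was 3977 bases. The canonical transcript of *Apoe* has 2181 bases, within the shortest of 5 equal bands of these genes (96 to 2330 bases). The median log2 level of this band relative to *Atm*-WT mice was −0.0853 to 0.109 in *Atm*-WT mice, highest in 32M, and −0.131 to −0.0565 in *Atm*-KO mice, lowest in 12M. With trends of GC content and length removed in each library the log2 fold change of *Apoe* was −0.56, near the −0.58 without the correction, and that of *Clu* was −0.31.
The 5 genes most like *Apod* were *C4b* (0.151), *Nfe2l2* (0.170), *Cavin1* (0.178), *Fbln5* (0.180) and *Ptk2b* (0.182), with a median transcript length of 4475 bases. *C4b* encodes a complement component, *Nfe2l2* the regulator of antioxidant genes NRF2, *Cavin1* a coat protein of caveolae and *Fbln5* an elastic fibre protein. *Apod* thus had other company than *Apoe*, and *Apoe* ranked after 20 of these genes in its likeness to *Apod*.

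**Figure D4:**
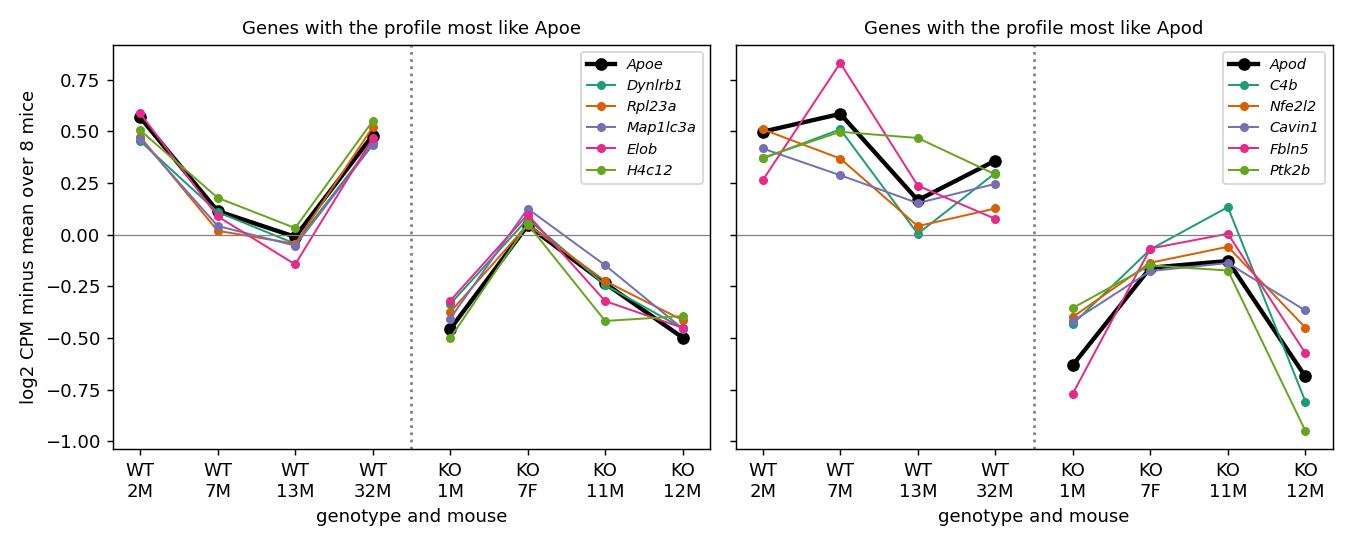
Log2 CPM minus the mean over 8 mice (vertical axis) in each mouse (horizontal axis) for *Apoe* (left) and *Apod* (right), in black, and for the 5 genes with the most similar profile, in colour. Lines only join the points of a gene within a genotype. The genes around *Apoe* share its high values in *Atm*-WT mice 2M and 32M, and those around *Apod* share its low values in *Atm*-KO mice 1M and 12M.

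Further genes of lipid transport were taken from 7 lists of related functions, with 92 distinct genes in all, and tested within the same fit. Of these, 77 passed the filter, and 0 were called by edgeR with the same 2 thresholds. At an unadjusted p under 0.05 edgeR had 22 lower and 4 higher in *Atm*-KO mice, against 8.48% and 11.7% of all genes, limma voom called 0, and DESeq2 had 6 lower and 2 higher at an adjusted p under 0.05, against 2.44% and 5.05%. Their median log2 fold change was −0.11, and 55 of the 77 had values below 0. Of all genes tested 53.1% had values below 0, as had 6583 of the 9955 with a mean of at least 10 CPM. The lists were fixed with earlier results of these data known.

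Of 11 other apolipoprotein genes only *Apoh* and *Apoa2* passed the filter, with means under 0.5 CPM. *Apoh*, which encodes a plasma glycoprotein, was at 0.434 ± 0.160 CPM in controls against 0.367 ± 0.150 CPM in *Atm*-KO mice (adjusted p = 0.777 from edgeR), and *Apoa2*, a component of plasma high-density lipoprotein, at 0.299 ± 0.163 and 0.273 ± 0.148 CPM (adjusted p = 0.930). The plasma apolipoproteins *Apoa1* and *Apob* had at most 0.0373 CPM as a mean of either genotype, and *Apoc2* and *Apoc4*, of the *Apoe* cluster, had no count in any library.

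All 12 of the other lipid carriers had values below 0, as did 53.1% of all genes tested, with a median log2 fold change of −0.22. Of the 12, 7 were lower at an unadjusted p under 0.05 in edgeR, against 8.48% of all genes. *Psap*, the precursor of the saposins that help break down sphingolipids in lysosomes, had the highest level per length. It was at 1117 ± 35.9 CPM in controls against 954.8 ± 40.5 CPM in *Atm*-KO mice, with no overlap (log2 fold change −0.23 with a standard error of 0.067, adjusted p = 0.122 from edgeR and 0.0190 from DESeq2). *Gm2a*, the ganglioside activator protein, had the lowest adjusted p of the list, with 58.0 ± 6.22 CPM in controls against 42.4 ± 4.95 CPM in *Atm*-KO mice (log2 fold change −0.45 with a standard error of 0.098, adjusted p = 0.0931 from edgeR and 0.00312 from DESeq2).

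Among 15 tested genes of other lipid-transporting ABC proteins, 8 had values below 0 and 7 above, with a median of −0.02, equal to that of all genes. *Abca2*, a transporter of oligodendrocytes and neurons with the highest level per length of the list, was at 599.8 ± 59.0 and 605.6 ± 18.7 CPM (log2 fold change 0.01, adjusted p = 0.942 from edgeR). *Abca7*, a phospholipid transporter related to *Abca1*, was higher in every *Atm*-KO mouse, at 71.6 ± 12.5 CPM in controls against 98.9 ± 15.5 CPM in *Atm*-KO mice (log2 fold change 0.47 with a standard error of 0.13, adjusted p = 0.116 from edgeR and 0.0217 from DESeq2). *Abcb1a*, the drug efflux pump of brain endothelium, was lower in every *Atm*-KO mouse, at 49.5 ± 1.85 and 39.8 ± 5.15 CPM (log2 fold change −0.31 with a standard error of 0.090, adjusted p = 0.116 from edgeR and 0.0365 from DESeq2). 

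Lipoprotein receptors and their adaptors had a median of −0.02 over 17 tested genes, with 9 values below 0. *Sorl1*, the sorting receptor with the highest level per length, was at 1576 ± 189.9 and 1599 ± 160.8 CPM (adjusted p = 0.934 from edgeR). Of the receptors that take up apolipoprotein E particles, *Lrp1* had a log2 fold change of 0.10, *Vldlr* of −0.03 and *Lrp8* of 0.07, with adjusted p-values from edgeR between 0.709 and 0.824. These 3 receptors were singled out after their values were seen. *Bsg*, a cell surface glycoprotein that binds apolipoprotein D, was at 334.6 ± 27.3 and 287.6 ± 9.58 CPM (log2 fold change −0.22, adjusted p = 0.138 from edgeR and 0.0724 from DESeq2).

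In the list of lipoprotein remodelling and sterol modification, 10 of 12 tested genes had values below 0, with a median of −0.13. *Pla2g7*, a phospholipase that travels on lipoproteins, was lower in every *Atm*-KO mouse, at 264.8 ± 17.5 and 228.8 ± 10.6 CPM (log2 fold change −0.21 with a standard error of 0.066, adjusted p = 0.133 from edgeR). *Angptl4*, an inhibitor of lipoprotein lipase, was at 1.97 ± 0.625 and 1.11 ± 0.138 CPM (log2 fold change −0.83 with a standard error of 0.26, adjusted p = 0.130 from edgeR and 0.0312 from DESeq2). *Ch25h*, which makes 25-hydroxycholesterol, was at 0.483 ± 0.370 and 0.129 ± 0.0728 CPM, close to the limit of detection (log2 fold change −1.92 with a standard error of 0.73, adjusted p = 0.180 from edgeR).

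The nuclear regulators of lipid efflux had a median of −0.07 over 12 genes, 9 of them below 0. The liver X receptor genes *Nr1h2* and *Nr1h3* had log2 fold changes of −0.05 and 0.19 (adjusted p = 0.749 and 0.448 from edgeR), and were named after their values were seen. *Rxra*, the partner with which liver X receptors bind DNA, was lower in every *Atm*-KO mouse, at 37.4 ± 2.44 and 27.1 ± 5.86 CPM (log2 fold change −0.46 with a standard error of 0.14, adjusted p = 0.122 from edgeR and 0.0243 from DESeq2). *Ppard*, a receptor for fatty acids, was also lower in every *Atm*-KO mouse, at 18.6 ± 1.70 and 15.2 ± 1.29 CPM (log2 fold change −0.30, adjusted p = 0.138 from edgeR and 0.0543 from DESeq2). *Ncor1*, a corepressor with the highest level per length of the list, was at 347.3 ± 30.1 and 335.8 ± 19.1 CPM (adjusted p = 0.756 from edgeR).

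Other targets of liver X receptors had a median of −0.12 over 10 tested genes, with 7 values below 0. *Scd2*, a fatty acid desaturase with the highest level per length, was at 2088 ± 131.2 and 1896 ± 196.4 CPM (adjusted p = 0.419 from edgeR). *Arl4c*, a small GTPase linked to cholesterol secretion, was at 129.9 ± 14.6 and 110.3 ± 4.24 CPM (log2 fold change −0.24, adjusted p = 0.143 from edgeR). *Mylip*, which encodes the ubiquitin ligase IDOL, was at 15.7 ± 1.40 and 13.1 ± 0.520 CPM (log2 fold change −0.26, adjusted p = 0.156 from edgeR). *Arl4c*, *Mylip* and *Smpdl3a* were lower in every *Atm*-KO mouse, as were 5.12% of all genes tested. Scaled by library size alone, that share of all genes was 2.64%. The other 7 of the 10 tested genes overlapped between genotypes, as *Abca1* did.

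**Figure D5:**
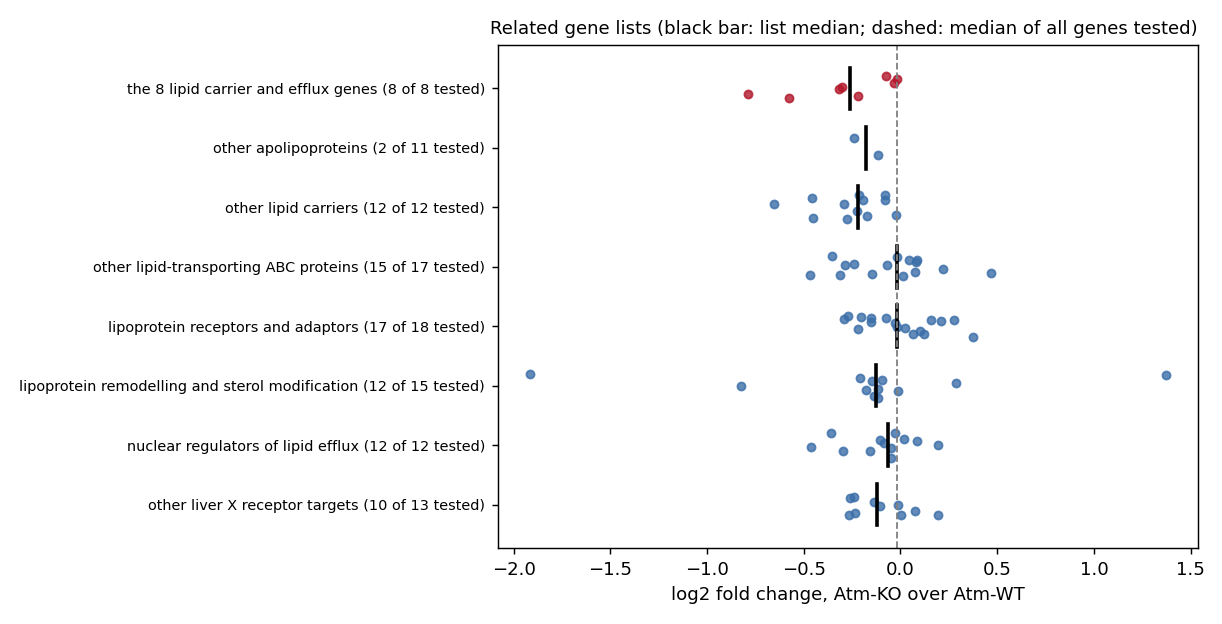
Log2 fold change of *Atm*-KO over *Atm*-WT mice (horizontal axis) for the 8 lipid carrier and efflux genes (red) and for the tested genes of 7 related lists (blue). Black bars are the median of each list and the dashed line is the median of all genes tested, −0.02. Transporters and receptors centre on that line, and other lipid carriers lie to its left with a median of −0.22.

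Cell type markers were set beside these values. For comparison, 53.1% of all genes tested had values below 0, as had 6583 of the 9955 with a mean of at least 10 CPM. The 14 markers of astrocytes and Bergmann glia, the main source of *Apoe*, *Clu*, *Abca1* and *Lcat*, all had values below 0, with a median log2 fold change of −0.16. Their summed level was 6901 to 7829 CPM in controls against 6253 to 7028 CPM in *Atm*-KO mice, lowest in 12M and 1M, as for *Apoe*. As a percentage of that sum, *Apoe* was 4.51 ± 1.13% in controls against 3.27 ± 0.406% in *Atm*-KO mice, with ranges that overlapped. *Abca1* was 2.42 ± 0.312% and 2.55 ± 0.133% of it. Markers of microglia, which also make *Apoe*, had a median of −0.39 over 9 tested genes, all below 0, and summed to 144.6 to 192.1 and 110.4 to 145.2 CPM. For oligodendrocytes, a source of *Apod*, 9 of 10 values were below 0 with a median of −0.18. Their sum ran from 3509 to 4563 CPM in *Atm*-WT mice and from 2108 to 3624 CPM in *Atm*-KO mice, and the lowest was mouse 12M, which had the lowest *Apod* as well. Relative to that sum *Apod* was 4.54 ± 0.897% in controls against 3.32 ± 0.645% in *Atm*-KO mice, and the ranges overlapped, with *Atm*-KO mouse 12M at 3.93% and *Atm*-WT mouse 32M at 3.75%. Choroid plexus, which makes *Clu*, had a median of −0.60 over 8 markers, all below 0, and summed to 792.4 to 1573 CPM in controls against 434.3 to 1227 CPM in *Atm*-KO mice, lowest in 1M. Mural cells (median −0.27, 8 of 8 below 0), endothelial cells (−0.21, 5 of 9) and meningeal fibroblasts (−0.09, 5 of 8) were also examined. Purkinje cell (−0.07, 6 of 7 below 0), granule cell (0.05, 2 of 6), red blood cell (0.61, 0 of 5) and forebrain markers (−0.20, 2 of 3 tested) completed the lists. None of the matched markers was at 0 in all libraries, and *Fcrls*, a microglial marker, had no match. The part of the cell type markers in the values of the 8 genes was not tested.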

How the data were processed

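The authors sent frozen cerebellar tissue to Novogene for RNA extraction and Illumina sequencing, checked reads with FastQC 0.11.9, aligned them with STAR to GRCm39 and deposited raw counts per gene from featureCounts, without normalization. Strand and read pair settings are not stated. Low counts (1 to 50) were even in 67.3% to 73.3% of cases, so a count may be a read or a fragment. Identifiers were matched without version to GENCODE vM39 on GRCm39 (98.8%). Where the methods used DESeq2, the main test here was edgeR 4.0.16 in R 4.3.3 (filterByExpr, TMM, glmQLFit, glmQLFTest, no covariate, Benjamini-Hochberg adjustment over 22423 genes), and DESeq2 1.42.0, limma 3.58.1 (voom) and a surrogate variable from sva 3.50.0 were alternatives. Log2 CPM used a prior count of 2. Standard errors were derived from the fold change and its F statistic. The procedure was tested on simulated counts with the same dispersion for every gene, a simpler setting than that of these data. Promoters came from RefSeq on GRCm38.p6.

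The 8 genes and all lists were chosen with earlier results of these data known. Named genes were the 8 genes, *Atm*, in each related list the gene with the highest level per length and the 2 others with the smallest p, and the 5 genes most like *Apoe* and *Apod* with at least 10 CPM. Some genes that this rule names are not reported here. P-values set the difference between genotypes against the spread between mice of a genotype, with 4 per group. In edgeR this spread is moderated across genes.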

Additional observations from a re-analysis of the deposited data

Results flagged for a closer look

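Values per mouse were examined for a mouse far from the other 3 of its genotype (Dixon's gap criterion at 95%). Of 104 groups of 4, 6 held such a value, where chance gives 5.2. *Abcg1* was low in *Atm*-KO mouse 1M (159.3 CPM against 178.5 to 181.9 in the other 3). The ratio of *Apod* to *Apoe* was high in *Atm*-KO mouse 11M (0.546 against 0.440 to 0.449). *Ch25h* was high in *Atm*-KO mouse 12M (0.237 CPM against 0.0774 to 0.103). *Arl4c* was high in *Atm*-WT mouse 13M (151.6 CPM against 119.5 to 124.7). The summed level of other apolipoproteins was high in *Atm*-WT mouse 2M (1.36 CPM against 0.900 to 0.968), and that of meningeal fibroblast markers in *Atm*-WT mouse 7M (178.0 CPM against 146.2 to 150.9).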

How the results depend on the processing

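The median log2 fold change of the 8 genes was −0.26 and ranged from −0.30 to −0.21 under the 17 alternatives. *Apoe*, *Apod*, *Clu*, *Lcat* and *Pltp* were below 0 under all of them, and without single mice *Apoe* ranged from −0.68 to −0.48, *Apod* from −0.87 to −0.70 and *Clu* from −0.41 to −0.25. *Abca1* was below 0 under 16, *Abcg1* under 14 and *Apoc1* under 9. A surrogate variable moved *Apoe* to −0.45, *Apod* to −0.67 and *Clu* to −0.21. Over all genes the count past both thresholds, 4 in edgeR (2 higher, 2 lower), was 994 in DESeq2 (807 higher, 187 lower), 435 without a filter on low counts (332 and 103), 2 with at least 10 counts in every library and 14 with a surrogate variable. It ranged from 1 to 27 without single mice, with 27 without *Atm*-WT mouse 13M, 9 without 32M, 2 without 7M, and 1 without *Atm*-WT mouse 2M, *Atm*-KO mouse 1M or *Atm*-KO mouse 11M. The cause was not tested. The split of higher and lower calls was 3 and 1 with library size alone. Of the 8 genes 2 passed both thresholds in DESeq2 (4.8% of all genes) and 2 without a filter (1.19%), and of the related genes 2 passed in DESeq2 and 0 in the others. Scaled by library size alone 1 of the 8 genes, in place of 3, had no overlap between genotypes, against 2.64% and 5.12% of all genes. For the named related genes, 313 of 338 values kept their direction and their side of the threshold, 10 gained a call and 15, all of genes not called, changed sign. With a surrogate variable *Apoa2* was at 0.38, *Abca2* at −0.030 and *Sorl1* at −0.028. Without single mice *Apoh* ranged from −0.42 to 0.028, *Apoa2* from −0.45 to 0.17, *Abca2* from −0.052 to 0.068 and *Sorl1* from −0.060 to 0.078. *Ncor1* was at 0.0010 with library size alone and 0.011 with GC and length trends removed. No paired analysis was possible because the labels pair no mice.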
